A study of Mus musculus with 9 samples.

Results

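The 39 genes described here make up the machinery that folds proteins and answers protein damage. They were taken from a list of heat shock, endoplasmic reticulum (ER) chaperone and unfolded protein response (UPR) genes. They fall into 15 ER chaperones and folding enzymes, 8 UPR sensors and factors, 13 cytosolic heat shock genes and 3 mitochondrial chaperones. All 39 passed the filter on low counts and stand among 17968 genes tested, of 35071 genes summed. RNA was sequenced from subcutaneous adipose tissue of C57BL/6 mice at 24 weeks of age, in 3 Homo KO, 3 Hete KO and 3 WT libraries. Homo KO and Hete KO are mice that carry a knockout of AGO1, an Argonaute protein of microRNA silencing, in endothelial cells, and WT mice are their littermates. The labels name neither the promoter behind the endothelial knockout nor the sex of the mice. Total RNA of the whole tissue was measured, so that fewer cells of a type and less RNA per cell cannot be told apart. Nothing in the labels says that the libraries of a group came from separate animals, and the p-values measure the spread between these libraries.

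Secreted and membrane proteins fold in the ER with the help of the Hsp70 protein BiP (Hspa5), the Hsp90 protein Grp94 (Hsp90b1), the lectins calreticulin and calnexin, and protein disulfide isomerases. When unfolded proteins build up, the membrane sensors Ire1 (Ern1), Perk (Eif2ak3) and Atf6 start the UPR, through spliced Xbp1, through Atf4 and through cleaved Atf6 itself, and the genes of ER chaperones are turned on. Damage in the cytosol is answered by Hsf1, which binds heat shock elements and turns on Hsp70, Hsp90, Hsp110 and small heat shock proteins. Adipocytes secrete adipokines and fibroblasts secrete matrix, and both therefore rely on the ER chaperones.

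The DNA elements through which both responses act were read in the promoters of these genes, because several of the ER chaperones share one of them. RefSeq windows of build GRCm38.p6, reaching from 250 bases before to 50 bases after a gene's start, were matched by symbol for 31 of the 39 genes. Hsp90aa1, Hsp90ab1, Hspa8, Hsf1, Hspa9, Hyou1, Manf and Atf6 had no entry. The ER stress response element (ERSE) was searched as CCAAT and CCACG with 9 bases of any kind between them, on both strands. It was found in 0.119% of 32851 RefSeq promoters, and counted by gene in 0.137% of 27025 genes. In the set it was found in 7 of the 13 ER chaperones with a window, and in none of the 18 other genes with one. This contrast was not tested. A match is given as a description of letters, not as a binding site. The 150 bases before the start of Hspa5 (chr2:34771940-34772089, plus strand), the ER Hsp70 gene, are shown with the ERSE match in capitals. The earliest transcript of the gene in GENCODE M21 begins inside this stretch.
Hspa5: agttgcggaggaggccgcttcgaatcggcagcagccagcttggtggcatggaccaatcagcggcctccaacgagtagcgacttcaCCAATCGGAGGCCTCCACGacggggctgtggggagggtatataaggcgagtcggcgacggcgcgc

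The ERSE matches of the other ER chaperones are shown in the direction of the motif, with its fixed letters in capitals, to show how the spacer differs between genes that share the element.
Hsp90b1, first match: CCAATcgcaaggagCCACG
Hsp90b1, second match: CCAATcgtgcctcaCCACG
Calr: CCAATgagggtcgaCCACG
Canx: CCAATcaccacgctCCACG
Creld2: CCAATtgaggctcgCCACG
Dnajc3: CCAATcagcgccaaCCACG
Pdia6: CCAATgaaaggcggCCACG

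The related ERSE-II, searched as ATTGG and CCACG with 1 base between them, was found in 0.0365% of RefSeq promoters and in Dnajb11 and Herpud1. The heat shock element was searched as 3 inverted units, GAA, TTC and GAA, with 2 bases between units, on both strands, and was found in 0.603% of RefSeq promoters. Hsph1, Hspd1 and Hspe1 held it. Hspd1 and Hspe1 lie head to head on chromosome 1, and their nearest windows share 285 bases. The pair of overlapping heat shock matches in these windows is shown in capitals on the strand of Hspe1 (chr1:55088053-55088082, plus strand). It stands before the start of Hspe1 and before the RefSeq start of Hspd1 in the shared window. The other Hspd1 window (chr1:55088194-55088493) held no match. In GENCODE M21, Hspd1 reaches from 55077835 to 55088243 on the minus strand, so the matches lie inside its annotated span.
Hspe1 and Hspd1: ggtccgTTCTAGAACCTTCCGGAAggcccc
The UPR element TGACGTGG, in 0.676% of RefSeq promoters, and the Atf4-type element TGATGNAAT, in 0.965%, were in none of the 31 genes' windows. No match says only that these letters are not in this window.

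Libraries held between 20843427 and 28252001 estimated counts. Ago1 had 62.2, 58.6 and 25.8 normalized CPM, that is counts scaled to the library's size, in Homo KO, 51.2, 59.7 and 60.1 in Hete KO, and 69.9, 63.9 and 63.4 in WT. All 6 KO libraries thus lay under the WT libraries, and Ago1 did not pass the test in either KO group by edgeR, at -0.43 on the log2 scale for Homo KO (SE 0.265, adjusted p = 0.441) and -0.21 for Hete KO (SE 0.264, adjusted p = 0.699). Adipocyte markers took between 1.40 and 2.09% of counts. Skeletal muscle markers took 3.21% of counts in Hete KO 2, 1.28% in WT 1 and 1.21% in WT 2, against 0.0116 to 0.160% in the other 6 libraries. Liver-type genes took 0.131% in WT 2 and 0.119% in WT 3, against 0.00718 to 0.0212% elsewhere. Homo KO 2 stood apart in TPM, the length-corrected unit of the deposited tables, as described with the cytosolic genes.

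In the comparison of Homo KO with WT, no gene of the 39 passed an adjusted p of 0.05 (edgeR's quasi-likelihood test, Benjamini-Hochberg over 17968 genes), and 0% of all genes tested did. In Hete KO against WT, again 0 of 39 passed, against 0.417% of all genes. At an unadjusted p under 0.05, 9 genes had lower and 0 had higher estimates in Homo KO, where 8.68% of all genes tested were lower. In Hete KO the same count was 12 lower and 0 higher, where 12.1% of all genes were lower. DESeq2 called 2 of the 39 lower in Homo KO (Hspa5 and Hsph1, against 2.02% of all genes) and 3 lower in Hete KO (Hspa5, Calr and Hyou1, against 5.7% of all genes). When the 6 KO libraries were set against the 3 WT libraries, edgeR called 0 of the 39, where 2.34% of all genes passed in either direction, with 15 lower at an unadjusted p under 0.05 (12.3% of all genes). DESeq2 called 8 lower there, where 5.83% of all genes were called lower: Hspa5, Hyou1, Sdf2l1, P4hb, Calr, Hsph1, Hspb1 and Hspb8.

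The edgeR counts depended on single libraries. Without Hete KO 1, edgeR called 3 of the 39 lower in Hete KO against WT (Hspa5, Manf and P4hb), where 3.25% of all genes were called lower. Without that library it called 3 lower for all KO against WT (Hspa5, Hsph1 and P4hb, against 3.8% of all genes). Without WT 1 it called 2 lower there (Hspb1 and Hyou1, against 2.77%), and with no filter on low counts it called Hspa5 alone (against 2.11%).

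The estimates leaned to one side without passing the test. Of the 39 genes, 32 had a log2 fold change below 0 in Homo KO and 32 in Hete KO. The median was -0.18 in Homo KO and -0.24 in Hete KO, against -0.01 and 0.01 over all genes tested. The KO and WT libraries did not overlap for 15 genes in Homo KO, all lower (11.2% of all genes tested were), and for 12 genes in Hete KO, all lower (12.1% of all genes). In 10 of the 39 genes the highest of the 6 KO libraries was under the lowest WT library, which held for 6.06% of all genes tested. These 10 were 8 of the 15 ER chaperones (Hspa5, Hsp90b1, Calr, Pdia3, P4hb, Hyou1, Sdf2l1 and Creld2) and 2 of the 13 cytosolic genes (Hsph1 and Hspb1), with 0 of 8 UPR genes and 0 of 3 mitochondrial genes. No gene of the set lay above WT in all 6 KO libraries, where 6.37% of all genes tested did. Both KO comparisons share the 3 WT libraries, so their likeness is not independent.

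**Figure D1:**
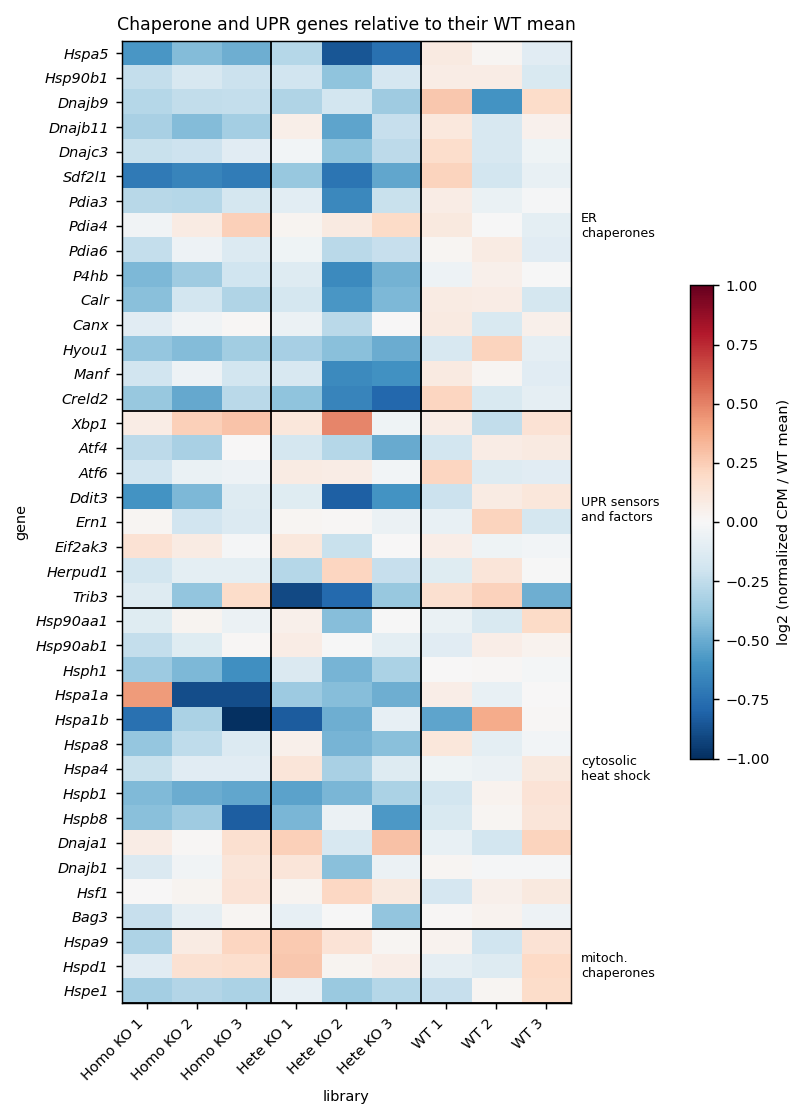
Level of each of the 39 genes (rows, by group) in each library (columns), as log2 of normalized CPM over the gene's WT mean; blue is below and red above that mean, and colours stop at -1 and 1. The ER chaperone rows are mostly blue in the KO columns, and Hete KO 2 is the lowest of the 9 libraries in 11 of those 15 genes.

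Among the ER chaperones, 14 of 15 estimates were below 0 in Homo KO and 14 of 15 in Hete KO, and none passed the test. Their median log2 fold change was -0.26 in Homo KO and -0.30 in Hete KO. Hspa5, the ER Hsp70 that also holds the UPR sensors inactive (chr2:34771970-34777547), had 505.9, 561.6 and 541.6 CPM in Homo KO, 622.6, 418.5 and 452.1 CPM in Hete KO, and 807.0, 769.2 and 700.1 CPM in WT. Every KO library was below every WT library, and Hete KO 1 stood nearest to WT. The log2 fold change was -0.50 in Homo KO (SE 0.155, adjusted p = 0.212) and -0.61 in Hete KO (SE 0.155, adjusted p = 0.0804) by edgeR, and DESeq2 gave adjusted p = 0.0407 and adjusted p = 0.00312. Over 23 alternatives the adjusted p of Hspa5 ran from 0.0407 to 0.693 in Homo KO and from 0.00312 to 0.496 in Hete KO, with 1 (DESeq2) and 2 (DESeq2, and edgeR without Hete KO 1) past the threshold.

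Hyou1, the Hsp110-type partner of BiP that exchanges its nucleotide (chr9:44379490-44392369), had 65.4, 63.1 and 67.2 CPM in Homo KO, 67.7, 64.0 and 60.6 CPM in Hete KO, and 76.2, 99.6 and 80.2 CPM in WT. The KO libraries lay within a narrow range below WT, and WT 2 was far above the other WT libraries. The log2 fold change was -0.39 in Homo KO (SE 0.114, adjusted p = 0.203) and -0.41 in Hete KO (SE 0.114, adjusted p = 0.0948). Hsp90b1, the ER Hsp90 (chr10:86690209-86705509), had 722.0, 762.7 and 736.4 CPM in Homo KO, 749.0, 645.1 and 760.2 in Hete KO, and 896.9, 898.2 and 766.1 in WT. The groups did not overlap, but Homo KO 2 and WT 3 differed by 3.48 CPM only. Its log2 fold changes were -0.21 (adjusted p = 0.414) and -0.25 (adjusted p = 0.254).

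The lectin chaperones and the disulfide isomerases differed among themselves. Calr, calreticulin, which folds glycoproteins in the lumen and stores calcium, had 69.7 to 81.0% of its counts on Calr-204, a retained-intron transcript of 943 bases, in all 9 libraries. Its summed TPM, with means of 1581 in Homo KO, 1452 in Hete KO and 1890 in WT, therefore rests mostly on that short transcript. The protein-coding transcript Calr-201, of 2184 bases, had 188.3, 137.9 and 162.0 TPM in Homo KO, 186.7, 137.0 and 162.4 TPM in Hete KO, and 248.0, 196.4 and 210.4 TPM in WT, without overlap between KO and WT. Calr-204 had 1282, 1674 and 1284 TPM in Homo KO, 1536, 1075 and 1247 TPM in Hete KO, and 1902, 1809 and 1288 TPM in WT, where WT 3 lay among the KO libraries. In CPM, Calr had 906.3, 1065 and 985.2 in Homo KO, 1071, 808.3 and 886.2 in Hete KO, and 1283, 1276 and 1073 in WT. The highest KO library, Hete KO 1, lay 2.16 CPM below the lowest WT library, WT 3, so the lack of overlap rests on a narrow margin. On the log2 scale Calr gave -0.30 in Homo KO (SE 0.142, adjusted p = 0.331) and -0.39 in Hete KO (SE 0.142, adjusted p = 0.151). Canx, calnexin, the membrane-bound lectin, gave -0.04 in Homo KO (SE 0.116) and -0.11 in Hete KO (SE 0.116), with overlapping groups.

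P4hb, a disulfide isomerase that is also a subunit of collagen prolyl hydroxylase (chr11:120560298-120573253), had 243.1, 259.4 and 288.1 CPM in Homo KO, 302.8, 213.1 and 238.1 CPM in Hete KO, and 320.3, 342.4 and 330.7 CPM in WT. The WT libraries were close together and above all KO libraries. The log2 fold change was -0.33 in Homo KO (SE 0.14, adjusted p = 0.284) and -0.40 in Hete KO (SE 0.14, adjusted p = 0.145), and the sign in Homo KO turned on the length-corrected scales. Pdia3, the isomerase that works with calreticulin and calnexin, gave -0.25 and -0.30, and Pdia6 gave -0.14 and -0.18. Pdia4 was the 1 ER chaperone with estimates above 0, at 0.10 in Homo KO (SE 0.106, adjusted p = 0.668) and 0.10 in Hete KO (SE 0.106, adjusted p = 0.619). It had 102.5, 110.9 and 123.9 CPM in Homo KO, 107.0, 111.5 and 119.6 in Hete KO, and 112.4, 104.5 and 97.9 in WT, and the groups overlapped.

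**Figure D2:**
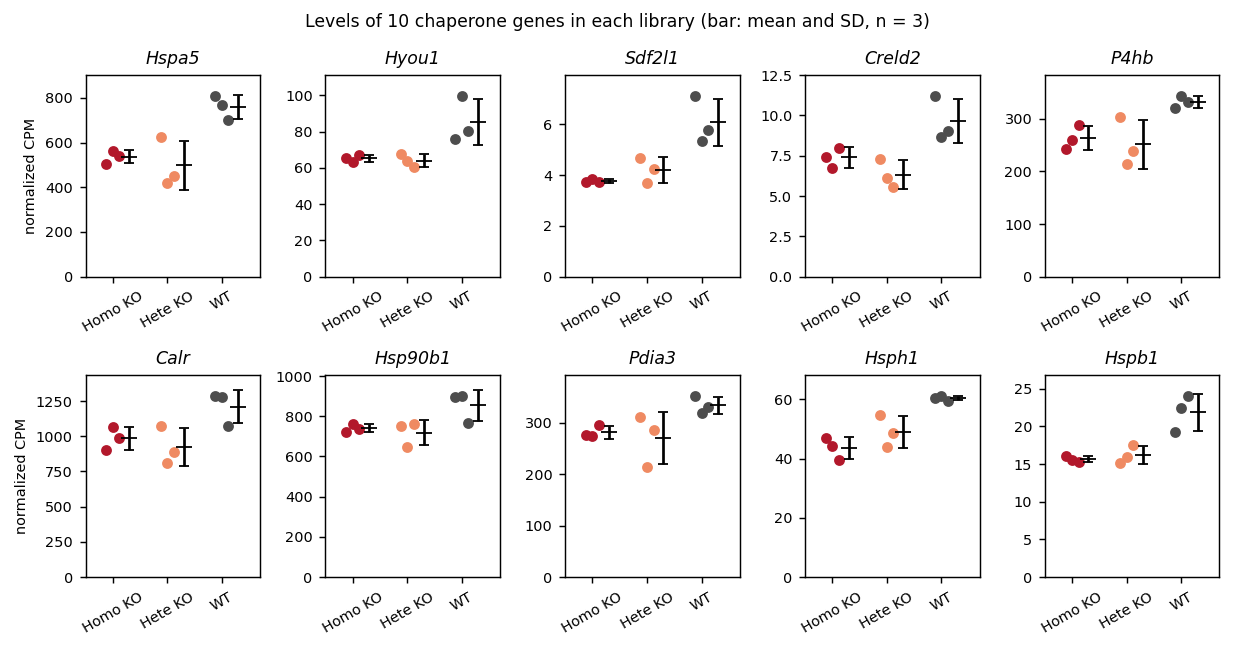
Normalized CPM in each library for the 10 genes in which no KO library reached the lowest WT library; dots are libraries and the bar beside them is the mean with its SD (n = 3). Hspa5 averaged 536 in Homo KO, 498 in Hete KO and 759 in WT, and relative to the WT mean the gap between the highest KO and the lowest WT library was narrowest for Calr and Hsp90b1.

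The small soluble ER proteins stood at low levels and showed some of the largest differences. Sdf2l1, a lumenal protein that works with BiP and its J-domain partners (chr16:17130138-17132383), had 3.71, 3.85 and 3.74 CPM in Homo KO, 4.67, 3.67 and 4.23 CPM in Hete KO, and 7.10, 5.33 and 5.78 CPM in WT. No KO library reached the WT range, and the Homo KO libraries were nearly equal. By edgeR, the log2 fold change was -0.69 in Homo KO (SE 0.202, adjusted p = 0.201), the lowest estimate of the set there, and -0.53 in Hete KO (SE 0.201, adjusted p = 0.164). Creld2, a secreted and ER-resident isomerase-like protein (chr15:88819646-88826683), had 7.43, 6.75 and 8.01 CPM in Homo KO, 7.31, 6.11 and 5.59 CPM in Hete KO, and 11.2, 8.66 and 9.06 CPM in WT. Its groups did not overlap either, with log2 fold changes of -0.38 (SE 0.181, adjusted p = 0.328) and -0.60 (SE 0.181, adjusted p = 0.108).

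Manf, an ER stress-induced secreted factor that binds BiP (chr9:106838312-106891979), had 23.6, 26.1 and 23.8 CPM in Homo KO, 24.1, 17.4 and 17.8 CPM in Hete KO, and 28.7, 27.3 and 25.0 CPM in WT. Hete KO 2 and Hete KO 3 stood apart below, Homo KO overlapped with WT and Hete KO did not. Its log2 fold change was -0.14 in Homo KO (SE 0.146, adjusted p = 0.664), with the other sign on the length-corrected scales, and -0.45 in Hete KO (SE 0.147, adjusted p = 0.125). The difference between the KO groups was 0.31 for Homo KO against Hete KO (SE 0.147, adjusted p = 0.902). The J-domain partners of BiP gave -0.26 and -0.28 for Dnajb9, -0.36 and -0.21 for Dnajb11, and -0.18 and -0.22 for Dnajc3, which also inhibits eIF2alpha kinases. Dnajb9 had 32.8 CPM in WT 2, the lowest of all 9 libraries, beside 59.8 and 56.3 CPM in WT 1 and WT 3.

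The 7 ER chaperones with an ERSE match had a median log2 fold change of -0.21 in Homo KO and -0.25 in Hete KO. The 6 with a window but no ERSE match, among them Dnajb11 with its ERSE-II match, had -0.29 in both. Hyou1 and Manf, which had no window, are in neither number, and the difference between the medians was not tested. The matched genes ran from -0.50 (Hspa5) to -0.04 (Canx) in Homo KO, and the others from -0.69 (Sdf2l1) to 0.10 (Pdia4).

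Added up, the 15 ER chaperones had 3409, 3714 and 3670 normalized CPM in Homo KO, 3863, 3007 and 3409 in Hete KO, and 4569, 4411 and 4054 in WT. The sums of the KO libraries all lay below those of WT, with ratios to WT of 0.828 in Homo KO and 0.789 in Hete KO. WT 1 was the highest of 9 libraries in 10 of the 15 genes, and Hete KO 2 the lowest in 11. Both of these libraries carried skeletal muscle transcripts. Without the 3 libraries with muscle transcripts, which leaves WT 3 alone in its group, the median of the ER chaperones was -0.23 in Homo KO and -0.14 in Hete KO. That lone library is assumed to vary like the other groups. WT 3 lay below the WT mean in 12 of the 15 genes.

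Shares of marker genes of other cells of fat were set beside the ER sums. The share of counts on 10 fibroblast and progenitor genes was 0.440 to 0.499% in Homo KO, 0.224 to 0.422% in Hete KO and 0.539 to 0.778% in WT, so that all 6 KO libraries were below WT here too. Within groups, the libraries ranked as in the ER sum in Hete KO, but not in Homo KO or WT. Homo KO 1 had the lowest ER sum of its group and the highest fibroblast share. The 10 macrophage genes took 0.0622 to 0.102% in Homo KO, 0.0466 to 0.0714% in Hete KO and 0.0939 to 0.144% in WT, and Homo KO overlapped WT. Plasma and B cell genes, whose cells are rich in ER, took 0.0328 to 0.0361% in Homo KO, 0.0147 to 0.0580% in Hete KO and 0.0534 to 0.0615% in WT, and Hete KO overlapped WT. All genes of these 3 lists were detected. Endothelial markers took 0.0738 to 0.120% of counts in Homo KO, 0.0682 to 0.0829% in Hete KO and 0.0764 to 0.113% in WT. The part of these cell types in the ER result was not tested.

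**Figure D3:**
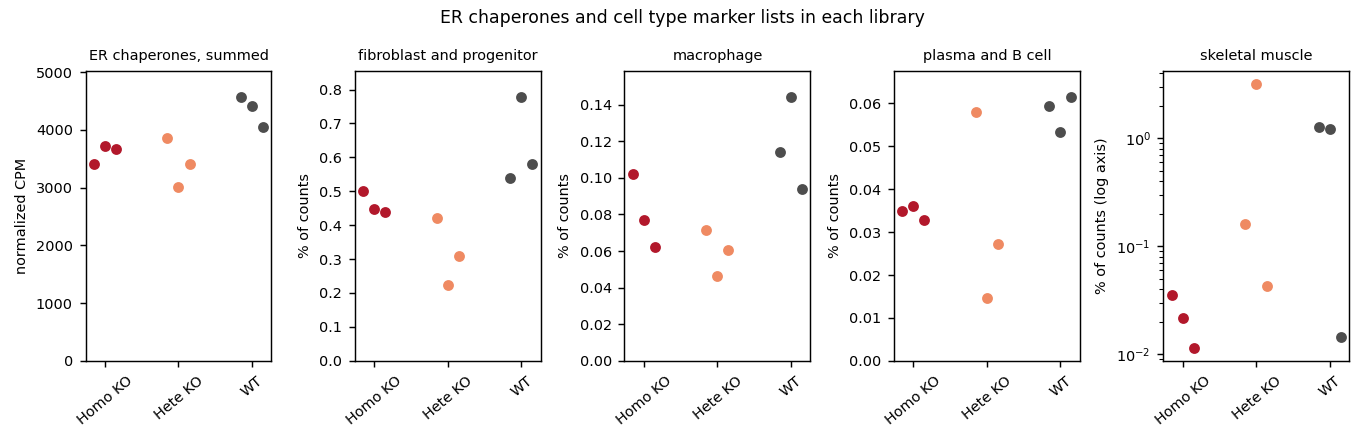
Summed normalized CPM of the 15 ER chaperones and the share of counts (%) on 4 cell type marker lists, by group; each dot is a library, and the muscle panel has a log axis. Fibroblast and progenitor genes took 0.224 to 0.499% in KO libraries and 0.539 to 0.778% in WT libraries. The ER sum was also lower in every KO library than in every WT library.

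Among the 8 UPR sensors and factors, which sense ER stress and pass the signal on, 6 estimates were below 0 in Homo KO and 6 in Hete KO, and none passed the test. Their median was -0.10 in Homo KO and -0.06 in Hete KO, and all 8 had groups that overlapped WT. Of all genes tested, 11.2% were lower without overlap in Homo KO and 12.1% in Hete KO. At an unadjusted p under 0.05, 0 of the 8 were lower or higher in Homo KO, where 8.68% of all genes were lower. In Hete KO, 3 were lower (Atf4, Ddit3 and Trib3) and 0 higher, where 12.1% of all genes were lower. Whether they differed from the ER chaperones was not tested. Summed, they had 349.0, 357.6 and 382.7 CPM in Homo KO, 369.5, 383.5 and 332.7 in Hete KO, and 378.0, 370.1 and 377.7 in WT. Xbp1, whose spliced mRNA encodes a UPR activator, had 77.0, 86.2 and 89.1 CPM in Homo KO, 78.8, 102.3 and 71.1 CPM in Hete KO, and 76.8, 61.8 and 80.6 CPM in WT. Its estimate was above 0 in both groups, at 0.20 (SE 0.153, adjusted p = 0.527) and 0.20 (SE 0.153, adjusted p = 0.481), with overlap. Gene sums do not separate spliced from unspliced Xbp1.

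Atf4, the activator of the amino acid and stress response made when eIF2alpha is phosphorylated, had 75.2, 72.1 and 90.6 CPM in Homo KO, 79.8, 74.2 and 63.7 CPM in Hete KO, and 79.6, 95.2 and 96.3 CPM in WT. WT 1 lay inside the range of the KO libraries. On the log2 scale the change was -0.19 in Homo KO (SE 0.131, adjusted p = 0.495) and -0.32 in Hete KO (SE 0.131, adjusted p = 0.199). Ddit3 (CHOP), its pro-apoptotic target, had 9.65, 10.7 and 13.4 CPM in Homo KO, 13.5, 8.30 and 9.68 CPM in Hete KO, and 12.6, 15.5 and 15.8 CPM in WT. Both KO groups overlapped WT, with -0.38 (SE 0.211, adjusted p = 0.399) and -0.48 (SE 0.211, adjusted p = 0.221). Trib3, a pseudokinase induced by Atf4 and CHOP, stood at 3.85 to 5.75 CPM in Homo KO, 2.71 to 3.89 CPM in Hete KO and 3.60 to 5.93 CPM in WT.

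Atf6, the sensor that is cleaved into a transcription factor, was the 1 gene of the set whose KO groups did not overlap each other, where 5.64% of all genes tested were lower in Homo KO than in all Hete KO libraries. It had 71.8, 78.2 and 79.1 CPM in Homo KO, 87.0, 86.4 and 80.5 CPM in Hete KO, and 95.5, 74.9 and 75.9 CPM in WT. The WT range held every Hete KO library, and Homo KO 1 lay below it. The difference was -0.15 for Homo KO against Hete KO (SE 0.113, adjusted p = 0.944). Ern1 and Eif2ak3, the other two sensors, gave estimates between -0.10 and 0.07, and Herpud1, which serves ER-associated degradation, gave -0.13 in Homo KO and -0.08 in Hete KO.

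**Figure D4:**
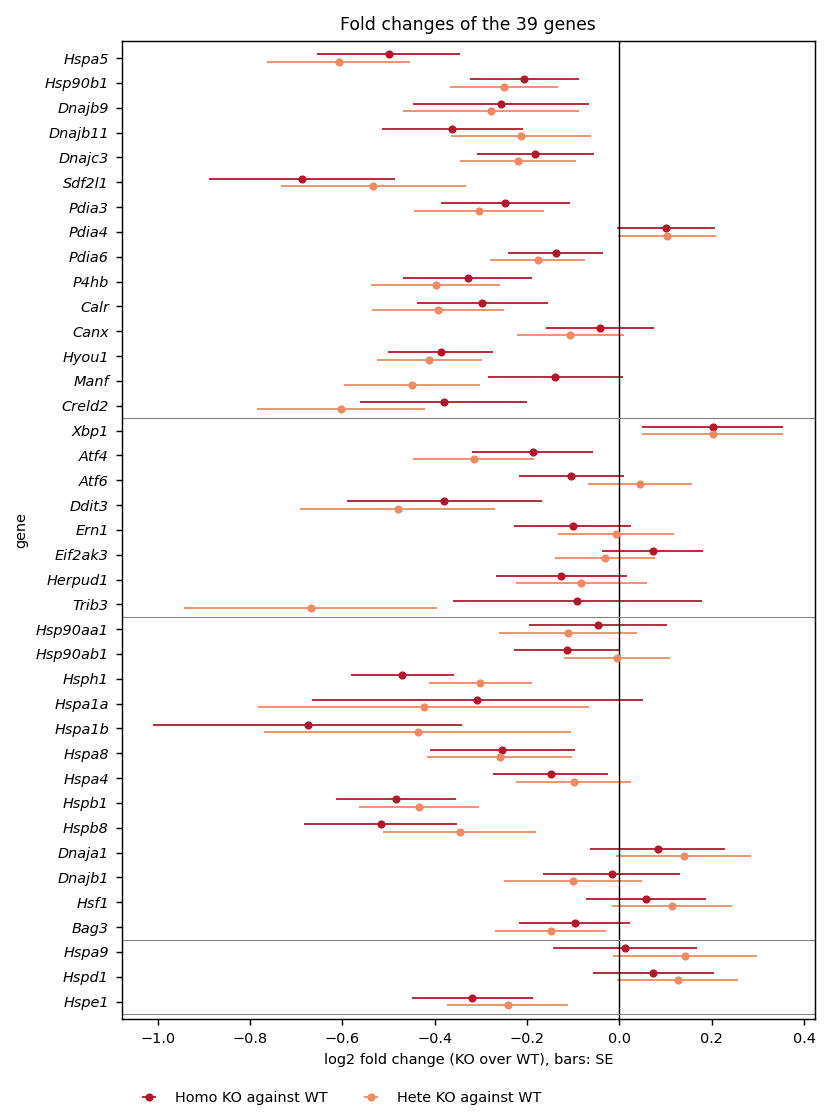
Log2 fold change against WT with its SE for each of the 39 genes, Homo KO in dark red and Hete KO in orange, grouped as ER chaperones, UPR genes, cytosolic genes and mitochondrial genes from top to bottom. ER chaperones lie left of 0 apart from Pdia4, as do 6 of 8 UPR and 11 of 13 cytosolic estimates in each KO group, and no gene passed the edgeR threshold.

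The 13 cytosolic heat shock genes had a median of -0.15 in Homo KO and -0.15 in Hete KO, and 11 of 13 estimates were below 0 in each. The lowest estimates apart from the inducible Hsp70 genes were those of Hsph1, Hspb1 and Hspb8. Hsph1 (Hsp110), which exchanges the nucleotide of Hsp70 (chr5:149614287-149636376), had 47.0, 44.3 and 39.4 CPM in Homo KO, 54.7, 43.8 and 48.6 CPM in Hete KO, and 60.6, 61.0 and 59.5 CPM in WT. The WT libraries agreed within 1.42 CPM and lay above all KO libraries. Its estimate on the log2 scale was -0.47 in Homo KO (SE 0.111, adjusted p = 0.162, and adjusted p = 0.0206 by DESeq2) and -0.30 in Hete KO (SE 0.111, adjusted p = 0.158). Over 23 alternatives the adjusted p in Homo KO ran from 0.0206 to 0.542.

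Hspb1 (Hsp25), a small heat shock protein that holds unfolded proteins (chr5:135887919-135889563), had 16.1, 15.5 and 15.3 CPM in Homo KO, 15.1, 15.9 and 17.5 CPM in Hete KO, and 19.2, 22.4 and 24.0 CPM in WT. No KO library reached the lowest WT library. By edgeR, the log2 fold change was -0.48 in Homo KO (SE 0.13, adjusted p = 0.183) and -0.43 in Hete KO (SE 0.13, adjusted p = 0.107). Hspb8, which acts with the co-chaperone Bag3 in selective autophagy (chr5:116408491-116422864), had 63.6, 66.5 and 47.9 CPM in Homo KO, 61.7, 81.6 and 57.1 CPM in Hete KO, and 76.3, 85.9 and 92.3 CPM in WT. Hete KO 2, the library richest in muscle transcripts, lay inside the WT range, and the others lay below it. Its log2 fold change was -0.52 in Homo KO (SE 0.166, adjusted p = 0.217) and -0.35 in Hete KO (SE 0.165, adjusted p = 0.259), while Bag3 gave -0.10 and -0.15.

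Hsp90aa1, the stress-inducible cytosolic Hsp90, had 316.0, 349.7 and 330.1 CPM in Homo KO, 355.0, 254.9 and 342.9 CPM in Hete KO, and 328.2, 308.3 and 392.6 CPM in WT. The groups overlapped, with log2 fold changes of -0.05 (SE 0.149, adjusted p = 0.903) and -0.11 (SE 0.149, adjusted p = 0.714). Hsp90ab1, its constitutive partner, gave -0.11 and -0.01 (SE 0.115 each). Hspa8, the constitutive Hsp70, gave -0.25 (SE 0.157, adjusted p = 0.441) in Homo KO, without overlap, and -0.26 (SE 0.157, adjusted p = 0.371) in Hete KO, with overlap. The J-domain proteins Dnaja1 and Dnajb1 gave estimates between -0.10 and 0.14, and Hsf1, the regulator of the response, gave 0.06 and 0.11.

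The inducible Hsp70 genes Hspa1a and Hspa1b encode nearly the same protein, and reads can be split between them, so that each value is uncertain. Hspa1a had 4.48, 1.81 and 1.81 CPM in Homo KO, 2.60, 2.49 and 2.38 CPM in Hete KO, and 3.51, 3.17 and 3.35 CPM in WT. Hspa1b had 2.08, 2.80 and 1.68 CPM in Homo KO, 1.97, 2.49 and 3.31 CPM in Hete KO, and 2.42, 4.53 and 3.53 CPM in WT. Added up, the pair had 6.57, 4.61 and 3.49 CPM in Homo KO, 4.56, 4.97 and 5.69 CPM in Hete KO, and 5.93, 7.70 and 6.88 CPM in WT. The pair's Hete KO libraries lay below WT and Homo KO 1 lay inside the WT range, with log2 fold changes of -0.49 (SE 0.253, adjusted p = 0.369) and -0.43 (SE 0.252, adjusted p = 0.351).

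The mitochondrial chaperones had estimates near 0 apart from Hspe1. Hspa9, the mitochondrial Hsp70, gave 0.01 in Homo KO (SE 0.156) and 0.14 in Hete KO (SE 0.156). Hspd1 (Hsp60) and Hspe1 (Hsp10) form one folding chamber, and a RefSeq window of each holds the heat shock matches shown above. Hspd1 had 141.3, 170.0 and 171.7 CPM in Homo KO, 184.7, 155.9 and 160.5 CPM in Hete KO, and 143.5, 139.9 and 175.8 CPM in WT. Hspe1 had 26.0, 26.9 and 26.4 CPM in Homo KO, 31.2, 25.5 and 27.0 CPM in Hete KO, and 28.1, 33.5 and 37.4 CPM in WT. Hspe1 in Homo KO lay below all WT libraries (-0.32, SE 0.131, adjusted p = 0.274), whereas Hspd1 overlapped (0.07, SE 0.131, adjusted p = 0.817). Hspe1 has processed pseudogenes that can take up its reads, and its value is uncertain for that reason.

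On the TPM scale, 1 library gave another picture. Hsp90aa1 had 174.6, 606.3 and 178.5 TPM in Homo KO, 201.3, 128.4 and 186.8 TPM in Hete KO, and 211.7, 158.8 and 192.2 TPM in WT. Homo KO 2 was thus 3.39 times the mean of the other 8 libraries in TPM, but 1.06 times in CPM. Of the 39 genes, 6, namely Hsp90aa1, Pdia4, Hspa8, Hsp90ab1, Pdia6 and Eif2ak3, were at least 1.5 times that mean in TPM, and 0 were in CPM. The ratio in TPM was at least 1.5 times that in CPM for 7 of the 39 genes, which adds Hspa5, and for 4.60% of all genes tested.

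Counts assigned to short transcripts of these genes moved with that difference. In genes of 2000 bases or more with at least 100 counts, transcripts under 1000 bases took a median of 9.61% of the counts of the set's genes in Homo KO 2, against 0.570 to 3.77% in the other libraries. Over all such long genes the median was 2.99% in Homo KO 2 and 1.57 to 1.85% elsewhere. Hsp90aa1-204, a retained-intron transcript of 325 bases, held 933 estimated counts in Homo KO 2 and 0 to 58 elsewhere. Hspa8-210, of 357 bases, held 1992 in Homo KO 2 and 12 to 33 elsewhere. Per length such short transcripts weigh heavily.

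In Hspa5 the main protein-coding transcript of 2613 bases, Hspa5-202, had 298.0, 276.7 and 286.0 TPM in Homo KO, 354.9, 224.5 and 257.2 TPM in Hete KO, and 489.8, 426.3 and 365.8 TPM in WT. The groups did not overlap in this transcript, whereas the gene's summed TPM of 530.2 in Homo KO 2 lay within the WT range of 402.8 to 535.5. The retained-intron transcript Hspa5-206 held 1323 counts in Homo KO 2 and 8 to 338 elsewhere. Summed TPM of the cytosolic genes was 1.193 times WT in Homo KO with that library and 0.891 times without it. The ER sum was 0.894 times WT with it and 0.819 times without it.

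**Figure D5:**
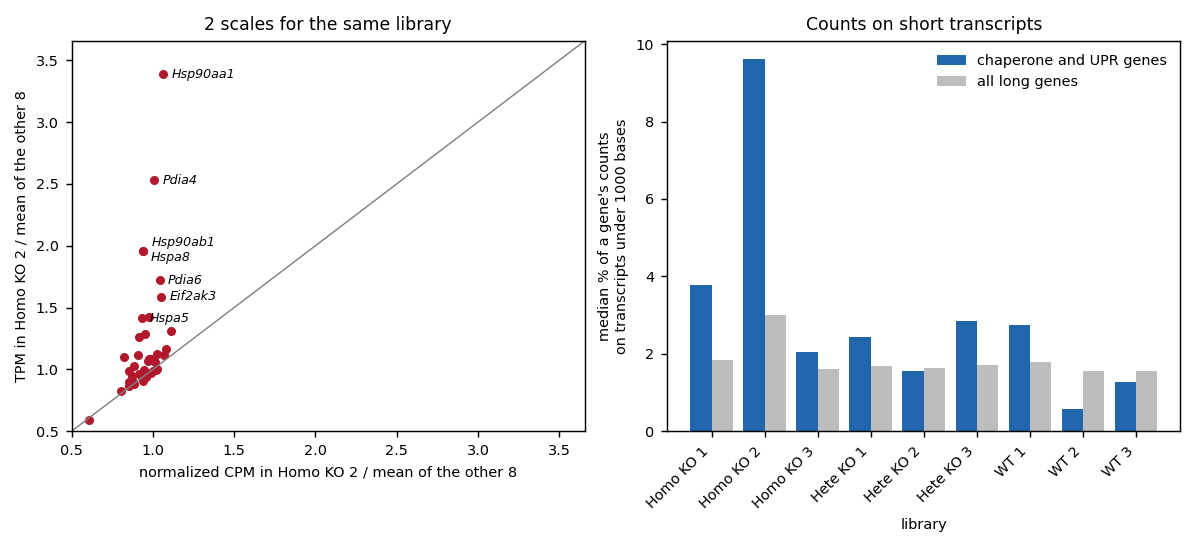
Left, for each of the 39 genes, TPM in Homo KO 2 over the mean of the other 8 libraries (vertical) against the same ratio in normalized CPM (horizontal), with the line of equal ratios; named genes have a TPM ratio at least 1.5 times their CPM ratio. Right, the median percentage of a long gene's counts on transcripts under 1000 bases in each library, which reached 9.61% for the chaperone and UPR genes of Homo KO 2.

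Beyond the 39 genes, 128 of 130 listed genes of the same pathways were tested. Of these, 0 passed the test in Homo KO and 1 passed in Hete KO, Wfs1, which was lower (0.267% of all genes were called lower). Wfs1 encodes wolframin, an ER membrane protein of calcium handling and the UPR. It had 19.5, 19.2 and 18.3 CPM in Homo KO, 17.7, 17.4 and 14.9 CPM in Hete KO, and 29.3, 28.5 and 24.7 CPM in WT. The highest KO library lay well under the lowest WT library. Wfs1 fell in Hete KO by edgeR's test, with an estimate of -0.72 on the log2 scale (SE 0.124, adjusted p = 0.0488), and its value in Homo KO was -0.53 (SE 0.123, adjusted p = 0.162). The difference between the KO groups was 0.19 (SE 0.124, adjusted p = 0.936).

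The call for Wfs1 in Hete KO held in 9 of 23 alternatives, with adjusted p from 0.000139 by DESeq2 to 0.351 without the libraries with liver-type transcripts. Leaving out WT 2 (-0.68), WT 3 (-0.77), Hete KO 2 (-0.76), Hete KO 3 (-0.63), Homo KO 1 (-0.70), Homo KO 2 (-0.72) or Homo KO 3 (-0.70) ended it, each with a log2 fold change of the same sign. Of the cell type markers given above, the fibroblast and progenitor share was also below WT in every KO library. The part of cell types in the Wfs1 result was not tested.

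In each list of ER and stress response genes, most estimates were below 0. Of 16 genes of ER oxidative folding, 15 had estimates below 0 in Homo KO and 14 in Hete KO, with medians of -0.13 and -0.14. Of the 18 targets of Atf4 and the integrated stress response, 11 were below 0 in Homo KO and 13 in Hete KO, with medians of -0.20 and -0.36. At an unadjusted p under 0.05, 6 of these 18 were lower in Homo KO (8.68% of all genes) and 9 in Hete KO (12.1% of all genes), with 0 higher in both, and none passed the adjusted test. Among them Nupr1, a stress-induced chromatin protein, had 38.9, 41.4 and 40.4 CPM in Homo KO, 36.6, 28.1 and 39.4 CPM in Hete KO, and 51.0, 53.5 and 49.5 CPM in WT, with -0.57 in Hete KO (SE 0.127, adjusted p = 0.0666). Mthfd2, a mitochondrial folate enzyme, gave -1.06 in Homo KO (SE 0.285, adjusted p = 0.184) and -0.98 in Hete KO (SE 0.284, adjusted p = 0.102), and Vldlr, a lipoprotein receptor, gave -0.63 (adjusted p = 0.174) and -0.50 (adjusted p = 0.125). The 16 genes of the translocon and signal peptidase, of which 12 and 13 were below 0, had medians of -0.12 and -0.08, the 15 of ER-associated degradation -0.04 and -0.10, and the 13 tested of 14 other UPR regulators -0.06 and -0.23.

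The cytosolic and mitochondrial lists had medians near or above 0, apart from the small heat shock proteins in Homo KO. The 28 cytosolic co-chaperones and other heat shock genes had medians of 0.00 in Homo KO and 0.10 in Hete KO, the 7 tested genes of the TRiC chaperonin 0.01 and 0.11, and the 10 of mitochondrial chaperones and proteases 0.04 and 0.10. The 5 other small heat shock proteins had -0.47 and 0.03. Of these, Hspb6 had 17.0, 18.4 and 19.2 CPM in Homo KO, 25.1, 55.3 and 24.4 CPM in Hete KO, and 38.3, 36.7 and 27.9 CPM in WT. It is abundant in muscle, and its highest value was in Hete KO 2, the library with the highest share of muscle markers. Hspb2 and Hspb7 are abundant in muscle too. Muscle markers took 0.0357% of counts or less in the Homo KO libraries, 0.0144% in WT 3 and 3.21% in Hete KO 2. Hspb2 had 1.40, 0.856 and 0.780 CPM in Homo KO, 1.71, 1.60 and 1.41 CPM in Hete KO, and 1.80, 3.81 and 3.46 CPM in WT, with -1.57 for Homo KO against WT (SE 0.383, adjusted p = 0.164). Hspb7 had 10.3, 8.79 and 11.8 CPM in Homo KO, 13.5, 27.9 and 46.1 CPM in Hete KO, and 17.1, 15.1 and 10.6 CPM in WT, with -1.50 for Homo KO against Hete KO (SE 0.376, adjusted p = 0.899). Its highest value was in Hete KO 3, where muscle markers took 0.04325% of counts. The part of muscle tissue in these values was not tested. Txndc11, an ER thioredoxin-like protein, gave 0.19 for Homo KO against Hete KO (adjusted p = 0.934).

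Homo KO and Hete KO were not told apart in this set. Of the 39 genes, 0 passed the test between them (0% of all genes tested did), 0 had an unadjusted p under 0.05, where 5.44% of all genes did, and DESeq2 also called 0 (0.0223% of all genes in each direction). The median log2 fold change was 0.02 for Homo KO against Hete KO over the 39 genes and 0.04 over the ER chaperones. The interval of each gene is wide beside such differences: for Hspa5 the difference was 0.11 with an SE of 0.155. A missed threshold does not show that the groups were alike.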

How the data were processed

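Estimated counts (expected counts) and TPM per transcript were deposited by the authors, per the file headers, in 1 file per library. TPM were scaled by the authors to effective length, per the file headers, and build mm10 is named per the submitters' processing notes. The aligner, the quantifier and the strand setting were not given in the sources used here. Transcripts were assigned to genes with GENCODE M21 (111362 of 113193 matched; the rest held 0.58 to 1.06% of counts). Estimated counts were summed, rounded and tested with edgeR 4.0.16 in R 4.3.3: filterByExpr, TMM, 1 coefficient per group over all 9 libraries, 6 residual degrees of freedom, quasi-likelihood F-test, two-sided, Benjamini-Hochberg over 17968 genes. Levels are TMM-normalized CPM. DESeq2 1.42.0 and limma 3.58.1 on log2(TPM + 0.5) were alternatives. The code was tested on simulated data. Ddit3 matches 2 gene identifiers, of which ENSMUSG00000025408.15 was used. One listed TRiC gene, Cct6a, was not analysed here.

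The genes and lists were chosen with earlier results of these data known, so no list was given a p-value. Described in full were genes past the threshold, up to 6 per comparison with the smallest p among those of at least 1 CPM whose groups did not overlap (3 for pathway genes), and Hspa5, Hsp90aa1, Hsph1, Hspa1a, Hspa1b, Xbp1, Atf4 and Ddit3 in any case. The rest were given by range and count or chosen after their values were seen. The comparison of all KO with WT libraries, and TPM sums without Homo KO 2, were added after seeing the data. Promoter windows came from RefSeq, GRCm38.p6. Matching replicate numbers were not taken as pairs, and whether they mark pairs or a batch was not settled.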

Additional observations from a re-analysis of the deposited data

How the results depend on the processing

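Of the alternatives run, most left the set as reported: 0 genes called in 22 of 23 settings for Homo KO against WT, 21 of 23 for Hete KO against WT and 23 of 23 for Homo KO against Hete KO. DESeq2 called 2, 3 and, for all KO libraries against WT, 8 genes. Leaving out 1 library gave 0 to 0 genes in Homo KO, 0 to 3 in Hete KO (3 without Hete KO 1: Hspa5, Manf and P4hb, where 3.25% of all genes were called lower) and 0 to 3 for all KO libraries (3 without Hete KO 1, 2 without WT 1). Without a filter on low counts 1 gene, Hspa5, was called there. The median log2 fold change ran from -0.193 to -0.149 in Homo KO, from -0.259 to -0.147 in Hete KO, from -0.045 to 0.062 between KO groups and from -0.247 to -0.176 for all KO libraries when 1 library was left out. It was -0.129 in Hete KO without the libraries with muscle transcripts. For all KO libraries it was -0.138 with a length offset and -0.129 with limma on log2(TPM + 0.5) or log2(TPM + 0.1). In Homo KO the median was -0.139 with the length offset and -0.115 with limma on log2(TPM + 0.5). In Hete KO these were -0.229 and -0.232. Those length-corrected scales also turned the sign of Manf, P4hb and Hsp90aa1 in Homo KO, and they carry the short transcripts of Homo KO 2. For P4hb this was not particular to that library. Its transcript P4hb-203, of 770 bases, had 53.9, 87.0 and 65.1 TPM in Homo KO. It had 91.9, 23.7 and 36.8 TPM in Hete KO, and 48.1, 5.9e-08 and 8.79 TPM in WT. The replicate block called 0 genes in each comparison. Same-numbered libraries had correlations of -0.0722 to 0.458 in their deviations from the group mean, over 0.1 in 3 of 9 pairs. Libraries with different numbers had -0.455 to 0.251. In both other groups at once, 1 library correlated best with its own number. The numbers were not taken as pairs, but these correlations do not settle whether they mark pairs or a batch. The gene values rest on the authors' assignment of reads to transcripts, which limits the low and near-identical genes most.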
